A study of Callithrix jacchus with 39 samples.

Results

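Liver and pancreas of the marmoset Callithrix jacchus, a New World monkey, were compared by their maps of 2 histone marks. The comparison took the 8 ChIP-seq libraries whose titles name these tissues, of 31 ChIP libraries and 39 samples in the series. Liver and pancreas each had 2 numbered H3K27ac libraries (antibody ab4729) and 2 numbered H3K4me3 libraries (ab8580). The labels give tissue, mark, antibody and replicate number, and no treatment, genotype, age or animal, so whether replicate numbers stand for different animals is not known. The 23 ChIP libraries of colon, heart, kidney, skeletal muscle, spleen and stomach served as background. The title of the series names enhancers of recent origin and differences between individuals, and the comparison here asks how the active maps of these 2 organs differ.

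H3K27ac is an acetyl mark on histone H3 found at active promoters and active enhancers. H3K4me3 is a trimethyl mark concentrated at the start sites of active genes, so H3K27ac without H3K4me3 is the usual signature of an enhancer away from a promoter. Liver and pancreas both arise from foregut endoderm, and liver is made up mainly of hepatocytes, which make plasma proteins and metabolise nutrients, whereas most of the pancreas is acinar tissue that makes digestive enzymes, with islets and ducts in between. Both are bulk tissues, so a mark present in fewer cells and a weaker mark in every cell cannot be told apart. The tissue labels were not checked against hepatocyte or acinar marker genes, because no gene annotation of the build of the files was used here. Regions are therefore given by position on calJac3 and not by gene.

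A peak list was available for each library, and the lists differed in length. The H3K27ac lists held 46317 and 51554 peaks in liver replicates 1 and 2 and 38827 and 37291 in pancreas, covering 40.5, 47.4, 28.0 and 31.2 Mb. The H3K4me3 lists held 20826 and 23787 peaks in liver and 16386 and 22107 in pancreas, covering 21.8, 25.9, 12.8 and 23.9 Mb. Pancreas H3K4me3 replicate 1 was thus short beside its own replicate, and its median peak was 693 bp against 939 bp in replicate 2. In the other 6 tissues the lists ranged from 24590 to 40507 peaks for H3K27ac and from 16850 to 24424 for H3K4me3, so both liver H3K27ac lists were longer than any of those 12. The lists carry no read depth, so a region missing from a list is one without a called peak there and need not lack the mark.

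For each mark the peaks of the 4 libraries were merged into regions where they overlapped by at least 1 bp, and each region was described by the libraries that held it. Regions in both liver libraries and in neither pancreas library are called liver-alone, the reverse pancreas-alone, and regions in all 4 libraries shared. These names refer to this pair of tissues only. The 4 H3K27ac libraries gave 77413 regions, of 139484 when all H3K27ac libraries of the series were merged. The 4 H3K4me3 libraries gave 26857 regions, of 35171.

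The H3K27ac maps held more tissue-alone than shared regions, and most of the tissue-alone ones were of liver. There were 12953 liver-alone regions (16.7% of all regions), 4762 pancreas-alone regions (6.15%) and 15105 shared regions (19.5%). The H3K4me3 maps were mostly common to both organs. There, 12977 regions were shared (48.3%), 1991 were liver-alone (7.41%) and 392 were pancreas-alone (1.46%). Since the rule forms the classes, these counts are descriptions with no test.

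**Figure D1:**
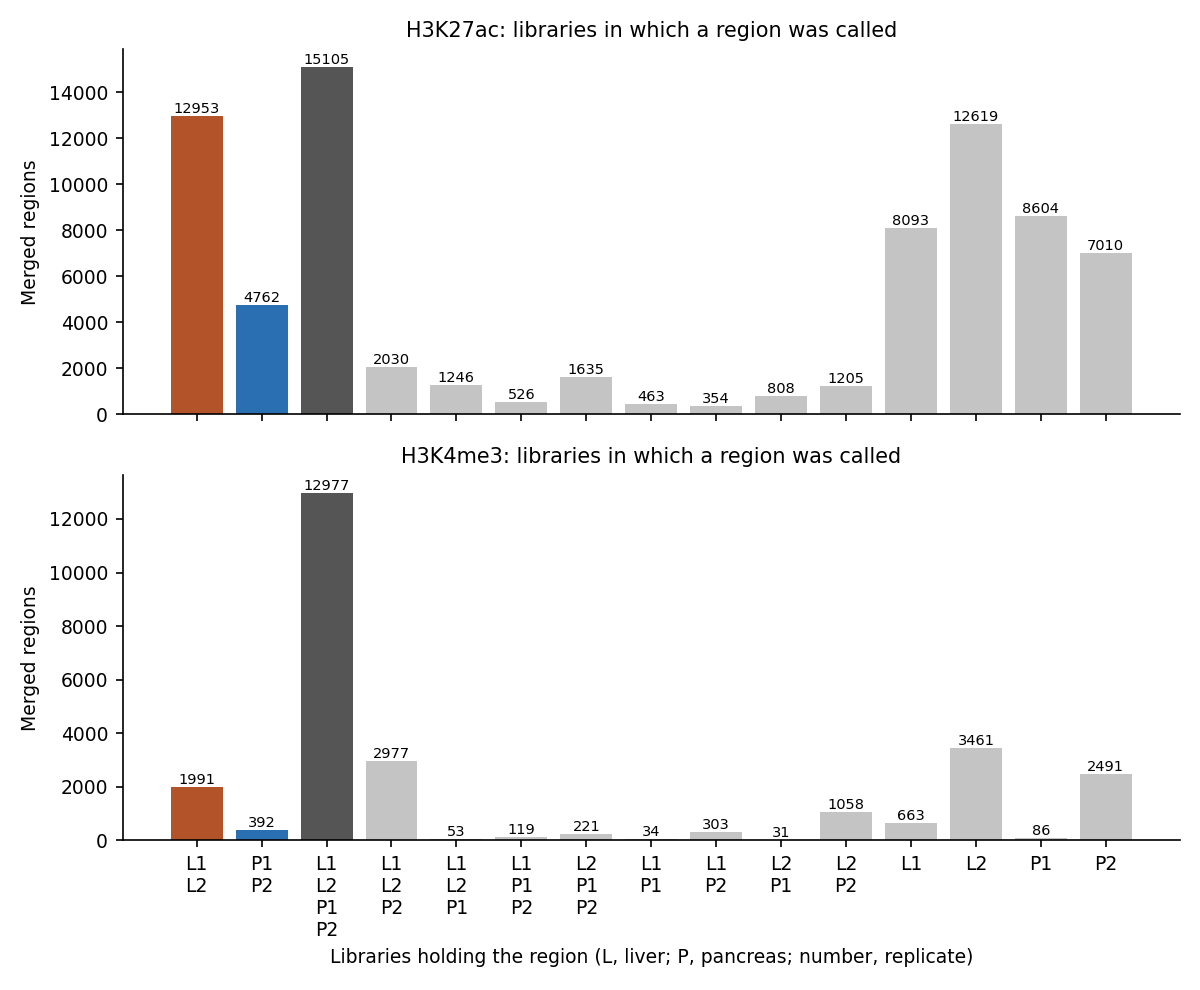
Number of merged regions (y axis) for each combination of the 4 libraries holding them (x axis; L, liver; P, pancreas; number, replicate), for H3K27ac above and H3K4me3 below, with liver-alone regions in orange, pancreas-alone in blue and shared in dark grey. Shared H3K4me3 regions form 1 high bar of 12977, while H3K27ac regions are spread over the 15105 shared, 12953 liver-alone and 4 groups of 7010 to 12619 regions of a single library.

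Many H3K27ac regions fell in none of the 3 classes. A single library held 36326 of them (46.9%), from 7010 in pancreas replicate 2 to 12619 in liver replicate 2. A further 5437 lay in 3 libraries (7.02%), and 2830 in 1 liver and 1 pancreas library (3.66%). For H3K4me3 the single-library regions numbered 6701 (24.95%), those in 3 libraries 3370 and those in 1 liver and 1 pancreas library 1426 (5.31%). Of the 3370, 2977 were missing from pancreas replicate 1 alone and 53 from pancreas replicate 2 alone.

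The excess of liver-alone regions depended on the libraries. Liver-alone H3K27ac regions were 2.72 times as numerous as pancreas-alone ones, and with each list reduced to its 37291 strongest peaks, the length of the shortest, the counts were 8725 and 5498 and the ratio 1.59. Leaving out pancreas replicate 1 or 2 gave ratios of 1.15 and 1.04, and leaving out liver replicate 1 or 2 gave 5.19 and 3.57, because a class that needs 1 list instead of 2 grows. For H3K4me3 the ratio was 5.08, and 1.94 with 16386 peaks per list (1328 and 684 regions). Without the short pancreas replicate 1 it turned to 0.704, with 2045 liver-alone and 2906 pancreas-alone regions. Without pancreas replicate 2 it was 7.80, and without liver replicate 1 or 2 it was 11.1 and 4.93. With pancreas replicate 1 left out, the pancreas-alone class needed 1 list and the liver-alone class still 2. In the full set 2491 H3K4me3 regions lay in pancreas replicate 2 alone and 3461 in liver replicate 2 alone. Whether the direction of the H3K4me3 ratio rests on 1 library therefore cannot be told from these values.

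The Jaccard index, the length common to 2 maps divided by the length in either, showed the same contrast between marks. For H3K27ac it was 0.550 between liver replicates and 0.502 between pancreas replicates, and from 0.304 to 0.345 between the tissues. For H3K4me3 it was 0.729 between liver replicates and from 0.448 to 0.632 between the tissues. Pancreas H3K4me3 replicates reached 0.518, where their unequal lengths allow no more than 0.536. Pancreas replicate 2 was nearer to both liver libraries (0.632 and 0.619) than to its own replicate. Among the 28 pairs of tissues in the series, liver with pancreas ranked 13 from the highest in H3K27ac (0.322, range over pairs 0.236 to 0.415) and 20 in H3K4me3 (0.554, range 0.520 to 0.661). The 0.554 is a mean of 0.517 and 0.448 with the short pancreas replicate 1 and 0.632 and 0.619 with replicate 2. The rank in H3K4me3 thus includes the short list, and no rank was computed without it. The share of H3K27ac regions found in 1 tissue of the pair, 22.9%, ranked 17 (range 15.9% to 33.6%).

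H3K27ac regions of 1 tissue rarely carried H3K4me3, whereas shared regions mostly did. Of the H3K27ac peaks in liver-alone regions, 16.4% (replicate 1) and 16.8% (replicate 2) overlapped an H3K4me3 peak of either liver library, and of those in pancreas-alone regions 16.7% in both replicates overlapped H3K4me3 of pancreas. The peaks of shared regions did so in 78.5% and 77.3% of cases in liver and 71.4% and 71.8% in pancreas. No value of the first kind came near any of the second. The difference was -58.1 ± 3.70 percentage points (SD, n = 4 libraries; exact two-sided permutation test by sign flips, p = 0.13, adjusted p = 0.232), negative in 4 of 4 libraries. Peaks of regions outside these classes overlapped H3K4me3 of their tissue in 15.3% and 23.4% of cases in liver and 15.1% and 21.6% in pancreas. A low share was thus not particular to tissue-alone regions.

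All p-values here were adjusted over the 13 comparisons tested, and the smallest p that 4 libraries allow is 1 in 8, printed as 0.13, so none could pass 0.05. In addition, both libraries of a tissue describe the same regions by the rule, so the 4 values are not independent and their SD is not a spread over independent samples. Stronger peaks are more easily called in every library. The median peak of a tissue-alone region stood at the 45.1, 46.6, 43.2 and 43.0 percentile of fold enrichment in liver 1, liver 2, pancreas 1 and pancreas 2, against 73.7, 80.5, 69.9 and 70.6 for shared regions. When peaks were compared within 10 strata of fold enrichment, the difference in H3K4me3 overlap was -46.7, -33.1, -41.3 and -39.6 points in the same order, a mean of -40.2 (exact permutation test, n = 4, p = 0.13). Measured on the central 300 bp of each H3K27ac peak, so that long peaks had no advantage, it was -57.7 points.

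**Figure D2:**
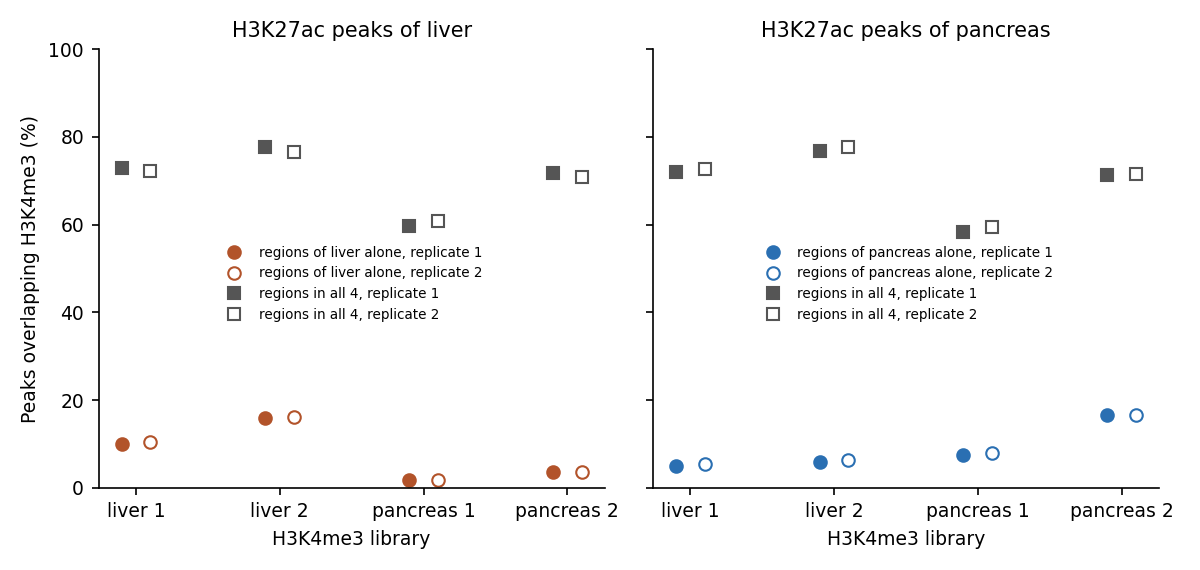
Percent of H3K27ac peaks (y axis) that overlap H3K4me3 of each of the 4 H3K4me3 libraries (x axis), for peaks of liver (left) and pancreas (right), with circles for tissue-alone and grey squares for shared regions, filled for H3K27ac replicate 1 and open for replicate 2. Shared regions lie between 58.4% and 77.7% with every library, and tissue-alone regions lie at or below 16.6%, lowest with the H3K4me3 of the other tissue.

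The overlap with single H3K4me3 libraries showed which tissue the H3K4me3 came from. H3K27ac peaks of liver replicate 1 in liver-alone regions overlapped liver H3K4me3 in 10.04% and 15.9% of cases (replicates 1 and 2) and pancreas H3K4me3 in 1.73% and 3.65%. For pancreas replicate 1 in pancreas-alone regions the values were 7.56% and 16.6% with pancreas H3K4me3 and 4.87% and 5.80% with liver H3K4me3. Pancreas-alone acetylation thus met H3K4me3 of the other organ more often than liver-alone acetylation did, whichever library of each mark was used. No test was made of this difference.

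Counted by region, 10678 of 12953 liver-alone H3K27ac regions (82.4%) and 3937 of 4762 pancreas-alone regions (82.7%) had no H3K4me3 in any of the 4 libraries. H3K4me3 of the own tissue alone lay at 1751 liver-alone regions (13.5%) and 460 pancreas-alone regions (9.66%). H3K4me3 of both tissues lay at 504 liver-alone (3.89%) and 343 pancreas-alone regions (7.20%), sites where the promoter mark was called in both organs and the acetylation in 1. H3K4me3 of the other tissue alone was found at 20 and 22 regions. Among shared regions 11580 (76.7%) had H3K4me3 in both tissues and 2465 (16.3%) in neither, so acetylation without H3K4me3 also occurred among the shared regions. In the H3K4me3 share of tissue-alone peaks the liver minus pancreas difference was -0.0669 percentage points (exact permutation test, 2 libraries against 2, p = 1, adjusted p = 1), less than the gap between the liver replicates. It changed sign under 8 of 16 alternative settings, and 2 libraries against 2 cannot give a p below 0.333.

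Peaks of tissue-alone H3K27ac regions were shorter than those of shared regions. Their median lengths were 618 and 653 bp in liver and 497 and 600.5 bp in pancreas, against 932, 1243, 754 and 898 bp for shared regions. The longest of the former medians was below the shortest of the latter. The difference was -365 ± 152 bp (SD, n = 4; exact permutation test by sign flips, p = 0.13, adjusted p = 0.232). Within 10 strata of fold enrichment it was 54.0, -53.0, -38.3 and 33.2 bp, a mean of -1.05 bp (exact permutation test, n = 4, p = 1), so among peaks of like strength the sign differed between libraries. A longer peak also meets peaks of other lists more easily, so length enters the rule that forms the classes and the test is not independent of it. Peaks of regions outside these classes were shorter still, with medians of 437 and 458 bp in liver and 383 and 428 bp in pancreas. Peaks of at least 2 kb made up 5.31% and 5.34% of liver-alone peaks and 12.4% and 17.7% of shared peaks in liver, and 1.06% and 3.53% against 6.24% and 9.40% in pancreas. Liver-alone peaks were longer than pancreas-alone peaks by 86.8 bp (exact permutation test, 2 against 2, p = 0.333, adjusted p = 0.361), and this direction turned when either liver library was left out (-41.5 and -42.5 bp).

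H3K4me3 peaks followed the same order. Tissue-alone H3K4me3 peaks had medians of 527 and 698 bp in liver and 448 and 945 bp in pancreas, and shared ones 1130, 1292.5, 715 and 1232 bp. The tissue-alone peaks were the shorter ones in each library, with a difference of -438 ± 186 bp (SD, n = 4; exact permutation test by sign flips, p = 0.13, adjusted p = 0.232). Pancreas replicates 1 and 2 differed by more than this for the very same regions, 448 against 945 bp. Without pancreas replicate 1 the mean difference was -541 bp over the remaining 3 libraries. Length enters the rule that forms the classes for this mark as well. Tissue-alone H3K4me3 peaks were also the weaker ones, with medians at the 22.0, 34.5, 19.7 and 39.2 percentile of fold enrichment against 64.8, 70.0, 52.7 and 67.2 for shared ones, and the part of strength in this length difference was not tested.

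**Figure D3:**
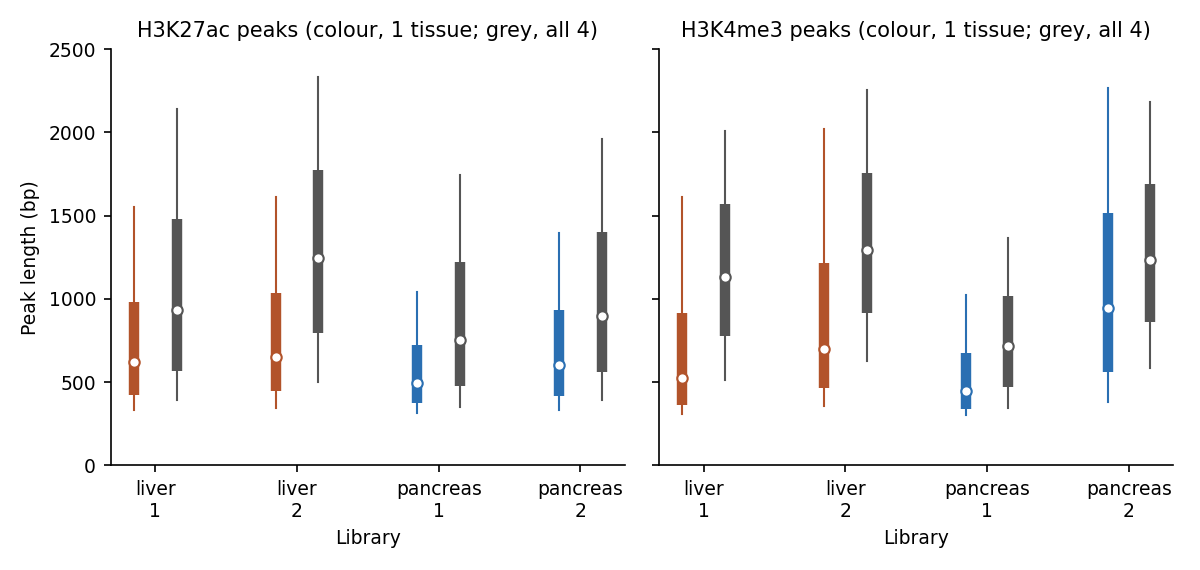
Peak length in bp (y axis) by library (x axis) for H3K27ac (left) and H3K4me3 (right), with the median as a circle, the middle 50% as a thick bar and the range from the 10th to the 90th percentile as a thin line, coloured for tissue-alone and grey for shared regions. In each library the median of the tissue-alone peaks lies below that of the shared peaks, and pancreas H3K4me3 replicate 1 has the shortest peaks of that mark, 448 and 715 bp.

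Tissue-alone acetylation without H3K4me3 also lay farther from promoters marked in the same tissue. Among H3K27ac peaks with no H3K4me3 overlap, 66.8% and 67.0% of liver-alone and 76.6% and 77.3% of pancreas-alone peaks lay over 10 kb from the nearest H3K4me3 peak of their tissue. For shared peaks without H3K4me3 the shares were 53.4%, 54.5%, 56.6% and 57.1%. The difference was 16.6 ± 4.12 points (SD, n = 4; exact permutation test by sign flips, p = 0.13, adjusted p = 0.232), positive in 4 of 4 libraries. Peaks without H3K4me3 in regions outside these classes gave 65.3% and 70.9% in liver and 74.0% and 72.9% in pancreas. The larger distance was thus not particular to tissue-alone regions either. The median distance was 21752 and 21879 bp for liver-alone and 38570 and 38975 bp for pancreas-alone peaks, and 11967, 12838, 15320 and 15690 bp for shared ones. Both tissues thus showed the same order, and the liver minus pancreas difference for tissue-alone peaks was -10.02 points (exact permutation test, 2 against 2, p = 0.333, adjusted p = 0.361). With lists of equal length that difference was -0.968 points, at 76.9% and 76.7% in liver and 77.7% and 77.8% in pancreas.

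**Figure D4:**
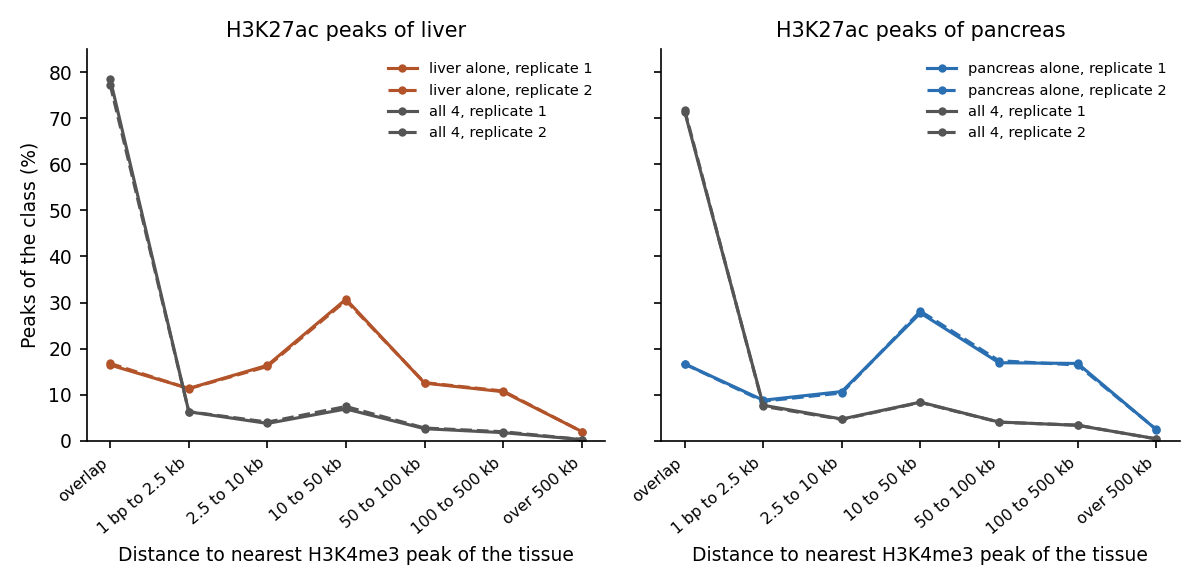
Percent of H3K27ac peaks of a class (y axis) by distance to the nearest H3K4me3 peak of the same tissue (x axis, from overlap to over 500 kb), for liver (left) and pancreas (right), with tissue-alone peaks in colour and shared peaks in grey, solid for replicate 1 and dashed for replicate 2. Shared peaks sit at the overlap end, while tissue-alone peaks have their highest share away from overlap at 10 to 50 kb, 30.7% in liver replicate 1 and 27.7% in pancreas replicate 1.

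Tissue-alone acetylation had a close neighbour more often than shared acetylation did. Another H3K27ac region held by both libraries of the tissue lay within 12500 bp of 73.1% and 73.3% of liver-alone peaks and 60.9% of pancreas-alone peaks in both replicates. For shared peaks it was 56.1% and 57.5% in liver and 47.5% and 47.7% in pancreas. The difference was 14.8 ± 1.85 points (SD, n = 4; exact permutation test by sign flips, p = 0.13, adjusted p = 0.232). The neighbours were mostly of the same kind: 58.1% and 58.4% of liver-alone peaks had another liver-alone region within 12500 bp, and 42.0% and 41.9% of pancreas-alone peaks another pancreas-alone region. Liver has more such regions to meet, so the tissues are not compared in this measure.

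Tissue-alone acetylation lay close to tissue-alone acetylation of the other organ less often than shared acetylation did. Taking H3K27ac peaks without H3K4me3, a pancreas-alone region lay within 12500 bp of 3.51% and 3.49% of liver-alone peaks and of 15.8% and 16.2% of shared peaks of liver. A liver-alone region lay within 12500 bp of 8.60% and 9.03% of pancreas-alone peaks and of 32.4% and 32.5% of shared peaks of pancreas. Peaks without H3K4me3 in regions outside these classes gave 6.67% and 6.42% in liver and 16.8% and 18.3% in pancreas, between tissue-alone and shared peaks in each library. The share to be met from the number and placing of these regions alone was not computed. Shared acetylation therefore had the regions of the other organ nearby more often than tissue-alone acetylation did, in 4 of 4 libraries. The difference was -18.1 ± 6.45 points (SD, n = 4; exact permutation test by sign flips, p = 0.13, adjusted p = 0.232). Over all H3K27ac peaks, with or without H3K4me3, the gap was smaller. A pancreas-alone region then lay within 12500 bp of 3.51% of liver-alone peaks in both replicates and of 8.82% and 8.96% of shared peaks, and a liver-alone region of 7.89% and 8.26% of pancreas-alone peaks and of 22.1% of shared peaks in both replicates. These comparisons were added after the data were seen.

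On a scale of 100 kb the tissue-alone H3K27ac peaks without H3K4me3 were set against tissue-alone H3K4me3 regions, in a comparison also added after the data were seen. A liver-alone H3K4me3 region lay within 100 kb of 28.1% and 28.0% of liver-alone and of 16.8% and 17.3% of pancreas-alone peaks. The liver minus pancreas difference was 11 points (exact permutation test, 2 against 2, p = 0.333, adjusted p = 0.361). Shared peaks without H3K4me3 gave 28.1% and 28.0% in liver and 35.4% in both pancreas replicates, so liver-alone acetylation was no nearer to liver-alone H3K4me3 than shared acetylation was. A pancreas-alone H3K4me3 region lay within 100 kb of 7.95% and 7.78% of pancreas-alone and of 3.38% and 3.18% of liver-alone peaks. That pancreas minus liver difference was 4.58 points (exact permutation test, p = 0.333, adjusted p = 0.361), and shared peaks lay between 6.79% and 7.27%. Without the short pancreas H3K4me3 replicate 1 that difference was 12.48 points, and without pancreas H3K27ac replicate 2 it was 2.17 points. With lists of equal length the liver minus pancreas difference was 6.0 points, and without liver H3K4me3 replicate 1 it was 17.0 points.

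Tissue-alone H3K4me3 differed between the organs in how much of it was acetylated. Of liver-alone H3K4me3 peaks, 91.3% and 91.2% overlapped H3K27ac of liver, against 92.4% and 92.2% of shared peaks in liver. Of pancreas-alone H3K4me3 peaks, 67.2% and 67.8% overlapped H3K27ac of pancreas, against 90.7% and 90.5% of shared peaks. The tissue-alone minus shared difference was -1.11 and -0.988 points in liver and -23.5 and -22.8 points in pancreas, a mean of -12.1 ± 12.8 (SD, n = 4; exact permutation test by sign flips, p = 0.13, adjusted p = 0.232). With lists of equal length it was -0.776 and -0.538 in liver and -25.9 and -25.6 in pancreas. Without the short pancreas replicate 1 the liver values turned to 0.777 and 1.03 and pancreas replicate 2 stood at -44.6 (mean -14.3, exact permutation test, n = 3, p = 1). The small liver difference also depended on which H3K4me3 libraries formed the classes. It was -8.60 and -8.81 points without pancreas replicate 2, -9.46 without liver replicate 1 and -8.26 without liver replicate 2, where pancreas stood between -28.4 and -25.3.

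The H3K27ac pattern at these H3K4me3 regions could be counted for each class. Of the 1991 liver-alone H3K4me3 regions, 914 (45.9%) had H3K27ac in both liver and neither pancreas library, 404 (20.3%) had H3K27ac in all 4 libraries and 144 (7.23%) in none. Of the 392 pancreas-alone regions, 161 (41.1%) had H3K27ac in both pancreas and neither liver library, 22 (5.61%) in all 4 and 122 (31.1%) in none. Of the 392, 0 had H3K27ac in both liver libraries and neither pancreas library. Shared H3K4me3 regions had H3K27ac in all 4 libraries in 10179 of 12977 cases (78.4%), in both liver libraries alone at 230 and in both pancreas libraries alone at 152. The 125 pancreas-alone H3K4me3 regions without any pancreas H3K27ac were short, with a median of 666 bp against 1230 bp for the 267 with it, and 110 of them (88.0%) carried H3K4me3 in at least 1 library of the other 6 tissues, against 65.9% of the 267. In liver 131 of 163 regions without H3K27ac (80.4%) were marked by H3K4me3 elsewhere, against 56.2% of the 1828 with it.

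Against the other 6 tissues, liver-alone acetylation was the more restricted. Of the peaks in liver-alone H3K27ac regions, 58.7% and 58.9% met no H3K27ac peak in any of the 12 libraries of the other tissues, against 42.0% and 40.4% of those in pancreas-alone regions. The values of the 2 tissues did not overlap, and the liver minus pancreas difference was 17.7 points (exact permutation test, 2 against 2, p = 0.333, adjusted p = 0.361). With lists of equal length it was 21.5 points. It ranged from 4.69 points without pancreas replicate 2 and 8.94 points without pancreas replicate 1 to 25.7 points without liver replicate 2. Peaks of regions outside these classes met no H3K27ac peak of the other tissues in 44.7% and 47.7% of cases in liver and 40.2% and 35.0% in pancreas. A higher share in liver than in pancreas was thus not particular to tissue-alone regions. Counted by region, 7360 liver-alone regions (56.8%) and 1877 pancreas-alone regions (39.4%) were found in no other tissue, and 36 and 58 in all 6. Shared regions were the opposite, with 332 (2.20%) in no other tissue and 9930 (65.7%) in all 6.

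**Figure D5:**
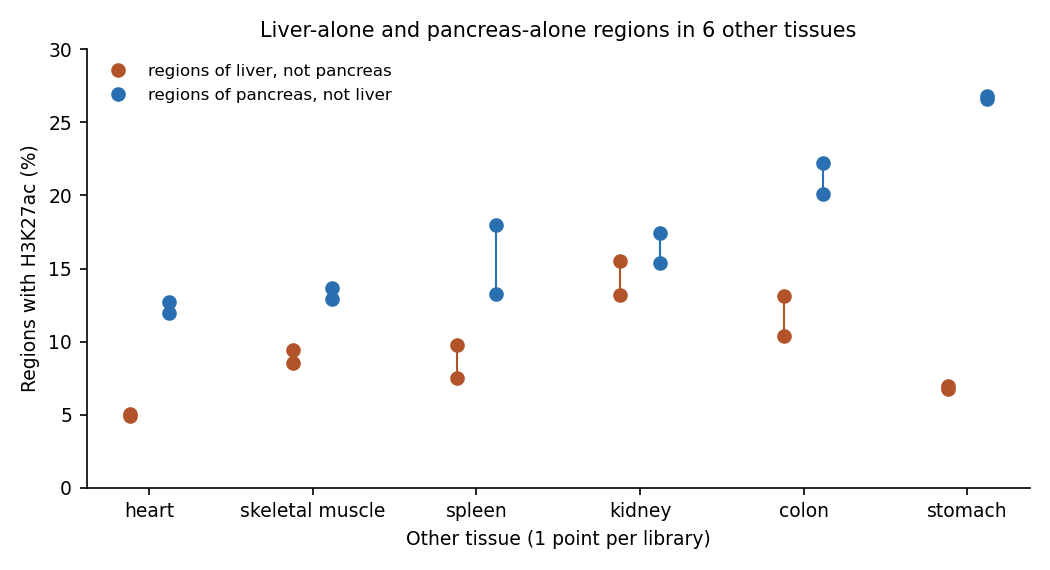
Percent of liver-alone (orange) and pancreas-alone (blue) H3K27ac regions overlapped by H3K27ac in each library of 6 other tissues (x axis), with 1 point per library and a line joining the 2 libraries of a tissue. Stomach lies highest for pancreas-alone regions, near 26.7%, and kidney highest for liver-alone regions, near 14.3%.

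The partner tissues differed. Pancreas-alone regions were met most often by stomach H3K27ac, 26.6% and 26.8% in its replicates, and then by colon (20.1% and 22.2%). Liver-alone regions were met most often by kidney (13.2% and 15.5%) and colon (10.4% and 13.1%), and by stomach in 6.75% and 6.95%. Shared regions were also met most often by stomach, with a mean of 85.9%, and then by kidney (83.0%) and colon (81.5%). The mean for pancreas-alone regions was 3.89 times that for liver-alone regions in stomach, 2.48 times in heart, 1.81 times in spleen, 1.80 times in colon, 1.48 times in skeletal muscle and 1.14 times in kidney. In kidney the ranges of both classes overlapped (15.4% to 17.4% for pancreas-alone regions), and in the other 5 tissues they did not. The ratio exceeded 1 in each of the 6, so stomach and kidney mark its ends. With lists of equal length the ratios were 4.34 in stomach and 1.27 in kidney, and heart reached 3.33.

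H3K4me3 regions of 1 tissue were less restricted than acetylated ones. Of liver-alone H3K4me3 regions 832 (41.8%) and of pancreas-alone ones 106 (27%) had H3K4me3 in no other tissue, and among shared regions 11937 (92.0%) had it in all 6. By the mean of its libraries stomach again met the pancreas-alone regions most, in 46.9% and 54.6% of cases, against 21.5% and 22.1% of liver-alone regions. Single libraries overlapped in this order, with 15.1% and 48.7% in skeletal muscle. Stomach also met shared H3K4me3 regions most, with a mean of 99.1%. Among tissue-alone H3K27ac regions, those with H3K4me3 of their tissue were more widely used: 43.1% of 2255 liver-alone regions with H3K4me3 were found in no other tissue, against 59.7% of 10698 without. In pancreas it was 24.9% of 803 against 42.4% of 3959. The order was the same in both organs, and no test was made of it.

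Tissue-alone regions were joined into clusters where they lay within 12500 bp. The 12953 liver-alone regions made 8204 clusters, of which 5388 held 1 region and 206 held 5 or more, with up to 13 regions and a span of up to 51.0 kb. The 4762 pancreas-alone regions made 3614 clusters, of which 2771 held 1 region and 23 held 5 or more, with up to 9 regions and 28.0 kb. Liver had 2.72 times as many regions to join, so the cluster sizes are a description and not a comparison of the tissues.

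The 5 liver clusters with the most covered length held between 11.1 and 12.3 kb of liver-alone H3K27ac. The first, at chr22:27781227-27800465, held 13.4 and 11.2 kb in liver replicates 1 and 2, no H3K27ac in pancreas and no H3K4me3 in any of the 4 libraries. The second, at chr6:134303720-134336861, was the widest, with 11 regions over 33.1 kb. It held 14.2 and 14.0 kb of H3K27ac in liver in all and 0.422 and 0.446 kb in pancreas, at regions outside the liver-alone class, and 9 of the 12 libraries of other tissues also had H3K27ac there, up to 6.24 kb in spleen. The third, at chr5:44289879-44315415, and the fourth, at chr16:90120797-90142296, carried H3K4me3 of liver (1.19 and 1.46 kb, and 3.30 and 3.24 kb) and none of pancreas. The fifth, at chr15:62790670-62810110, was a cluster of 9 regions with 10.1 and 12.1 kb of liver-alone H3K27ac, no H3K4me3, and no H3K27ac in any other tissue. Of the 5 liver clusters it was the only one absent from all 12 libraries, and 2 held no H3K4me3 in either tissue.

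Of the 5 pancreas clusters, 4 carried H3K4me3 of pancreas, and 3 of the 5 liver clusters carried H3K4me3 of liver. The first, at chr4:99716674-99726329, was a single region of 9.66 kb with 9.40 and 9.47 kb of H3K27ac in pancreas and none in liver. H3K4me3 there was 2.83 and 6.08 kb in pancreas and 0.151 and 1.18 kb in liver. The 0.151 kb of liver replicate 1 is below the shortest peak of that list, 300 bp. It thus belongs to a peak that reaches beyond the cluster. The third, at chr14:40288454-40298362, had 8.72 and 9.42 kb of H3K27ac in pancreas and none in liver. It carried H3K4me3 of both organs, 3.22 and 5.02 kb in pancreas and 2.098 and 2.55 kb in liver. The second, at chr7:37238656-37252743, had 8.57 and 9.80 kb of pancreas-alone H3K27ac and H3K4me3 in pancreas alone (0.879 and 5.06 kb). The fourth, at chr8:103797970-103811025, had 7.22 and 9.18 kb and H3K4me3 in pancreas alone (0.831 and 3.10 kb), and was the only one of the 5 without H3K27ac in the 12 libraries of other tissues. The fifth, at chr1:209493266-209508818, had 5.80 and 7.49 kb, no H3K4me3 in either organ, and up to 6.85 kb of H3K27ac in a stomach library. Other tissues also had H3K27ac at the first cluster (4 of the 12 libraries, up to 7.29 kb in kidney). The second had it in 6 of the 12 (up to 1.28 kb in stomach) and the third in 6 (up to 6.90 kb in spleen).

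The longest H3K4me3 regions of 1 organ were marked by H3K27ac to different degrees. In liver the longest, at chr14:87527187-87533388, spanned 6202 bp, with 5890 and 5885 bp of H3K4me3 and 4938 and 4408 bp of H3K27ac in liver and neither mark in pancreas. The next, at chr15:25376299-25382104, had 5127 and 5748 bp of H3K4me3 and 5244 and 5680 bp of H3K27ac in liver, and none of either in pancreas. The third, at chr4:54048926-54054075, had 4235 and 4663 bp of H3K4me3 and 3839 and 1475 bp of H3K27ac in liver, with 494 bp of H3K27ac in pancreas replicate 1. In pancreas the longest, at chr12:19930631-19936465, showed the gap between replicates, with H3K4me3 over 1202 bp in replicate 1 and 5835 bp in replicate 2, and H3K27ac over 1587 and 1892 bp. At chr8:115873075-115878711 the H3K4me3 covered 4784 and 5637 bp and H3K27ac 4103 and 4577 bp, with 1513 bp of H3K27ac in liver replicate 2 and neither mark in any library of the other 6 tissues. At chr9:6551485-6556206 it covered 454 and 4656 bp and H3K27ac 575 bp in pancreas replicate 2 alone.

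Where H3K4me3 was shared and acetylation was found in 1 organ, the median width of H3K4me3 was greater in the acetylated organ. At the 152 shared H3K4me3 regions with H3K27ac in both pancreas and neither liver library, the median covered length of H3K4me3 was 706 and 827.5 bp in liver and 831.5 and 1386 bp in pancreas. At the 230 with H3K27ac in both liver and neither pancreas library it was 1019 and 1109 bp in liver and 526 and 939.5 bp in pancreas. At the 10179 with H3K27ac in all 4 it was 1370 and 1496 bp in liver and 944 and 1477 bp in pancreas. The liver medians were thus above both pancreas medians in the liver-acetylated set and below both in the pancreas-acetylated set, although liver replicate 2 and the short pancreas replicate 1 nearly tied there. Summed over replicates, H3K4me3 was wider in liver at 203 of the 230 (88.3%), at 37 of the 152 (24.3%) and at 8427 of the 10179 (82.8%). Each of these shares includes the short pancreas list, and the 88.3% was near the 82.8% of regions with H3K27ac in all 4. Set against pancreas replicate 2 alone, both liver libraries were wider at 115 of 230 regions (50%), at 2 of 152 (1.32%) and at 3086 of 10179 (30.3%). These counts were made after the data were seen and were not tested.

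The longest of these regions show the pattern at single sites. At chr11:62945327-62949644, with H3K27ac in liver, H3K4me3 covered 4187 and 4082 bp in liver and 351 and 772 bp in pancreas. At chr18:33061951-33065716 it was 2997 and 3766 bp against 364 and 331 bp, and at chr10:75582306-75586068 2845 and 3763 bp against 843 and 1051 bp. In the reverse case, chr11:69592268-69596378, pancreas had 1887 and 4111 bp and liver 300 and 816 bp, and at chr10:22367472-22371287 pancreas had 2553 and 3816 bp and liver 862 and 827 bp. The longest with pancreas H3K27ac, chr4:99722053-99726799, overlaps the first pancreas cluster and had 2831 and 4694 bp against 611 and 1345 bp. These 6 regions were chosen as the longest of their kind, and H3K4me3 was found there in 9 to 11 of the 11 libraries of other tissues.

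By chromosome, liver-alone H3K27ac regions outnumbered pancreas-alone ones on each of the 24 assembled chromosomes. The ratio over these was 2.72 (12647 and 4651 regions). It was highest on chromosome X (228 and 62 regions, 3.68) and lowest on chromosome Y (12 and 9 regions, 1.33), where the numbers are small. Among the autosomes chromosome 14 was lowest, with 435 and 229 regions and a ratio of 1.90. Relative to shared regions, chromosome 22 held the fewest regions of both organs, 38.4 liver-alone and 13.0 pancreas-alone per 100 shared, and chromosome 6 the most liver-alone ones, 125 per 100 shared.

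Liver and pancreas were also set beside the other pairs of tissues treated in the same way. The difference in H3K4me3 overlap between tissue-alone and shared H3K27ac peaks was negative in all 28 pairs, from -67.0 to -54.6 points, and the -58.1 points of liver and pancreas ranked 3 from the highest, among the smaller gaps. The difference in median length ran from -372 to -277 bp, and that of liver and pancreas, -365 bp, was among the largest (rank 26 of 28 from the highest). The excess of tissue-alone peaks over 10 kb from H3K4me3 ran from 15.4 to 31.9 points, and at 16.6 points liver and pancreas ranked 25. The excess of tissue-alone peaks with a close neighbour ran from 9.11 to 21.1 points, and at 14.8 points they ranked 19. These pairs share libraries, so the ranks are descriptions.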

How the data were processed

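ChIP-seq of H3K27ac and H3K4me3 used TruSeq DNA library preparation, per the labels. MACS2 2.1.1.20160309, bedtools 2.26, SAMtools 1.3.1 and Bowtie 1.1.2 are listed in the submitters' processing notes, with no role or order. The files deposited by the authors are narrowPeak lists, and every ChIP library has its own, so replicates were not pooled for calling. Build calJac3 was read from the peak names, per the file headers. The deposited fold enrichment is a ratio, each peak's own value from the authors' peak caller, and served only for ranks and strata inside a list. The deposited −log10 q was 3.53 or higher in the 8 lists and was used for 1 stricter setting. The 8 input samples were not used. Read depth is unknown, so no interval was computed, and a deeper or more enriched library can yield a longer list.

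Intervals were handled with Python 3.11.15 and numpy 2.4.6, and figures drawn with matplotlib 3.10.9. Peaks were merged across the 4 libraries of a mark, and classes compared on each library's own peaks. Differences between tissue-alone and shared peaks were tested over 4 libraries by exact sign flips, and those between tissues by exact permutation of 2 against 2 libraries, all two-sided, with Benjamini-Hochberg adjustment over 13 tests. A p-value at the smallest its test allows shows only that library values shared a sign or separated by tissue, not how far they spread. Differences between these libraries may be technical. Overlap, class and test functions were tested on simulated data with known answers.

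The named regions are the 5 clusters per tissue with the largest mean covered length of tissue-alone H3K27ac joined within 12500 bp, the 3 longest tissue-alone H3K4me3 regions, the 3 longest shared H3K4me3 regions with H3K27ac in 1 tissue, and the chromosomes with the highest and lowest ratio. Chromosomes 14, 22 and 6 were named after their values were seen. Classes, tests and rules were chosen with earlier results of these data known. Alternatives were −log10 q of at least 5, lists of equal length, assembled chromosomes alone, overlap of at least 50%, joining within 500 bp, H3K4me3 in both libraries, the central 300 bp, 10 strata of fold enrichment, a replicate block and leaving out each library. No genome or annotation of calJac3 was used here, so no gene was assigned, no marker gene list was tested and no sequence is shown.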

Additional observations from a re-analysis of the deposited data

How the results depend on the processing

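Of 224 alternative values for 19 results, 203 kept their direction, and counts stayed within 1.5 times, 11 counts moved further and 10 differences changed sign. The 203 include the replicate block of each tested difference, which cannot change a mean. A kept direction refers to the mean alone. It includes the length difference within strata of fold enrichment, -1.05 bp, whose libraries differed in sign. It also includes the H3K27ac share of H3K4me3 peaks without pancreas replicate 1, where the liver values were 0.777 and 1.03 points. No p could pass 0.05 under any setting, so no call was lost. The liver minus pancreas difference in H3K4me3 share changed sign with −log10 q of at least 5 (0.0488 points), overlap of at least 50% (0.772), joining within 500 bp (0.0426) and H3K4me3 required in both libraries (2.14), and ran from -12.5 to 9.17 points when single libraries were left out. The difference in length ran from -42.5 to 244.5 bp when single libraries were left out. Leaving out single libraries gave 14263 to 27739 liver-alone and 5345 to 14493 pancreas-alone H3K27ac regions, and 2045 to 5708 liver-alone and 513 to 2906 pancreas-alone H3K4me3 regions. Fewer lists are then required, which itself enlarges the classes. Lists of equal length gave 684 pancreas-alone H3K4me3 regions. Joining within 500 bp reduced the difference in close neighbours to 9.68 points and that in neighbours of the other tissue to -11.8, and H3K4me3 required in both libraries raised the difference in shares over 10 kb from H3K4me3 to 24.9. The difference in H3K27ac share of H3K4me3 peaks ran from -20.9 to -12.49 points with single libraries left out.

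The labels do not say what a replicate number marks, and the numbers were not taken as pairs. The difference in presence between replicates 1 and 2 correlated between liver and pancreas at 0.0236 over H3K27ac regions and -0.0265 over H3K4me3 regions. Of regions in 1 liver and 1 pancreas library, 1668 lay in libraries of the same number and 1162 in crossed numbers for H3K27ac, and 1092 and 334 for H3K4me3, where replicate 2 lists were the longer ones. With the number as a replicate block the H3K4me3 overlap difference was -58.1 points, the length difference -365 bp and the share in no other tissue 17.7 points, each the same mean as without the block, and p could not go below 0.5.

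Read depth is unknown, so how far depth limits these values was not tested. The shortest list was pancreas H3K4me3 replicate 1 (16386 peaks).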
